A study of Mus musculus with 63 samples.

Results

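The genes described here are 38 genes commonly listed as targets of MYC in ribosome production and cell growth, of which 35 were measured among the 19938 genes on the arrays. A gene was taken as measured where at least 1 probe set carried its symbol alone, and the brightest such probe set was used. Npm3, Noc2l and Ppan had none and were not analysed here. The 35 genes were examined in 3 ways: their relation to the Myc level of the same array, their level in the arrays with the least Myc, and their difference between treated and untreated lymphomas.

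The series holds 63 expression arrays of primary B-cell lymphomas from lymph nodes of mice with the Emu-myc transgene on a C57BL/6 background. In these mice Myc is driven by the immunoglobulin heavy-chain enhancer, so transgenic expression belongs to the B lineage, and both groups carry the transgene. The native group has 32 arrays of untreated lymphomas, 15 from 100 ng and 17 from 300 ng of RNA. The CTX 4h group has 31 arrays of lymphomas taken 4 h after cyclophosphamide, an alkylating drug, 29 from 100 ng and 2 from 300 ng. The dose on the 29 labels that give one is 300 mg/kg. The native and treated arrays share no lymphoma number, each array has its own, and no label says that each array is a separate mouse. The protocol of 44 arrays speaks of recipient mice transplanted with lymphoma cells and given the drug, while the source label names transgenic mice and the design text speaks of untreated samples alone. The groups were used as the treatment labels give them.

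Ribosomes are built in the nucleolus. RNA polymerase I transcribes the precursor of ribosomal RNA, small nucleolar ribonucleoproteins guide its methylation and pseudouridylation, and separate sets of assembly factors cut and fold it into the small and the large subunit. MYC is a transcription factor that binds, with its partner MAX, to E-boxes such as CACGTG, and genes of this pathway are among its best known targets in B-cell lymphoma. The list also holds 6 genes of growth and metabolism that are not ribosome factors.

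Promoters were read for the genes because E-boxes are the sites at which MYC and MAX bind. RefSeq promoters of the GRCm38.p6 build, 250 bases before and 50 bases after a start, were matched by symbol for 29 of the 35 genes, with 34 promoters in all. Rrp12, Npm1, Srm, Rrs1, Fbl and Bop1 were not matched. The palindrome CACGTG stood in 7 of the 34 promoters (20.6%), belonging to 6 genes, Nop2, Wdr43, Utp20, Nme1, Pes1 and Cdk4, against 7.15% of all 32851 promoters in the table. The related pair CACGCG or CGCGTG, the same site read on either strand, which cannot overlap CACGTG, stood in 23.5% of these promoters and in 9.27% of all. These promoters were also richer in CG, with a median of 22 CG steps per promoter against 7, and both motifs hold CG. Dkc1, Tfrc, Nop58 and Gnl3, the genes with the steepest relation to Myc over the 32 native arrays below, had no CACGTG in this window. Without the 2 arrays of low Myc described below, Nolc1, Dkc1, Polr1b and Ebna1bp2 were the steepest, also with no CACGTG, and Tfrc was the flattest.

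The 250 bases upstream of the start are shown for Nop2, Nme1 and Cdk4, the 3 genes whose upstream window held the E-box. They are also shown for Ncl, whose window held none. Its relation to Myc over the 32 native arrays was the flattest of the 29 matched genes. Sequences run 5′ to 3′ on the gene's strand, with CACGTG in capitals, and for Nme1 1 of its 2 promoters in the table is shown.
Nop2, chr6:125131633-125131882, plus strand: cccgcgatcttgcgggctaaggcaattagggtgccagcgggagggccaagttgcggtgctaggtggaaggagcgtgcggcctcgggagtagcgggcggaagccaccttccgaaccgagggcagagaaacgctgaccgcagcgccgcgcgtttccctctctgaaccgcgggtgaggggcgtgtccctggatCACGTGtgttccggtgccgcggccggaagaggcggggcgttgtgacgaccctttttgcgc
Nme1, chr11:93968026-93968275, minus strand: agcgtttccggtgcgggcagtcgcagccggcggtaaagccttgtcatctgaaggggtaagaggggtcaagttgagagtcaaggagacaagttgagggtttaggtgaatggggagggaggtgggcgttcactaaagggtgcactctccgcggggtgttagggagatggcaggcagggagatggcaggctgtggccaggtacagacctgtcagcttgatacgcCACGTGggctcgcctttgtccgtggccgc
Cdk4, chr10:127063285-127063534, plus strand: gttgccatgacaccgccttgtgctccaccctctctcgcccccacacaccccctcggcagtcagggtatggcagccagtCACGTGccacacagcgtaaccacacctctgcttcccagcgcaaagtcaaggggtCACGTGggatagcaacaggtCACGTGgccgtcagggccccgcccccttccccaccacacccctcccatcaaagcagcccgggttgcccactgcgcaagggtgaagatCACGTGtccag
Ncl, chr1:86359456-86359705, minus strand: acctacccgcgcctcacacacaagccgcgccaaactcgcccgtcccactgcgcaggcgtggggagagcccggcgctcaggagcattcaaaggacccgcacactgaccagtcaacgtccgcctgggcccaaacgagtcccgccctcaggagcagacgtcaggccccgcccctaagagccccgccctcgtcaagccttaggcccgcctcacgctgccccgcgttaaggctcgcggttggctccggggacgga
The E-box of Nop2 began 60 bases before the start and that of Nme1 began 29 bases before it. The Cdk4 window held 4 copies, beginning 172, 118, 98 and 11 bases before the start. A match is a description of the letters and not of binding, which was not measured.

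The Myc level, on the log2 scale of the deposited values, was lowest at 10.64, had a median of 13.26 and was highest at 13.75 in the native arrays. In the CTX 4h arrays it was lowest at 12.36, had a median of 13.17 and was highest at 13.78. The widest gap between neighbouring values lay between 11.39 and 12.36, and 2 native arrays fell below it, replicate 8 (11.39, lymphoma 9820, 100 ng) and replicate 19 (10.64, lymphoma 8740, 300 ng). The other 30 native arrays began at 12.87. Because these 2 arrays stand apart and pull on a fitted line, each relation to Myc is given with and without them, and correlations are given over the other 30 arrays. The arrays read bulk tissue, so fewer tumour cells and less transcript per cell cannot be told apart. Transgenic and endogenous Myc transcripts were not told apart here.

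All 35 genes rose with the Myc level of the array in native lymphomas. The slope is the change in a gene's log2 level per 1 log2 unit of Myc, fitted with limma with RNA input as a term and adjusted by Benjamini-Hochberg over all genes. It passed an adjusted p of 0.05 with a positive sign for 35 of 35 genes, where 29.1% of all 19937 genes other than Myc did, and its median was 0.77 against −0.08 for all genes. Without replicates 8 and 19, 32 of 35 genes rose with Myc, with a background of 17.5% and a median slope of 0.93. The 3 that did not pass were Tfrc, with a slope of 0.24 ± 0.43 (SE, n = 30, limma adjusted p = 0.685), Nop16 (0.44 ± 0.21, adjusted p = 0.0983) and Rrs1 (0.41 ± 0.17, adjusted p = 0.0577). Within each RNA input and without the 2 arrays all 35 slopes were positive, with 9 genes called among 14 arrays at 100 ng (1.6% of all genes, median 0.91) and 27 among 16 arrays at 300 ng (8.9%, median 0.92).

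The same relation held among the treated lymphomas, which have other lymphoma numbers. In the 31 CTX 4h arrays 32 of 35 genes rose with Myc, with a background of 20.7% and a median slope of 0.85. The same 3 genes missed the threshold, Nop16 at 0.40 ± 0.19 (SE, limma adjusted p = 0.0872), Rrs1 at 0.42 ± 0.22 (adjusted p = 0.127) and Tfrc at 0.64 ± 0.38 (adjusted p = 0.183). A limma test of the difference between the slopes of the 2 groups, with all native arrays, called none of the 35 genes and 0.0652% of all genes. By an unadjusted p under 0.05 there were 2 of the 35, Ncl (−0.27 ± 0.09, SE) and Pes1 (0.35 ± 0.17). Without the 2 native arrays of low Myc again none of the 35 passed. Ncl (−0.35 ± 0.12) and Npm1 (−0.43 ± 0.20) then had an unadjusted p under 0.05, and Pes1 was −0.06 ± 0.23. The shares of all genes at this unadjusted threshold are not given here. Quantile normalization over all arrays took the called genes in CTX 4h from 32 to 13, with 7.16% of all genes called in either direction. It took the median slope there to 0.37. The native count stayed at 35, with a median slope of 0.65, in a fit that holds the 2 native arrays of low Myc. Neither the share of all genes called in that fit nor such a fit without those 2 arrays is given here. Whether normalization affects the 2 groups differently was not tested.

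**Figure D1:**
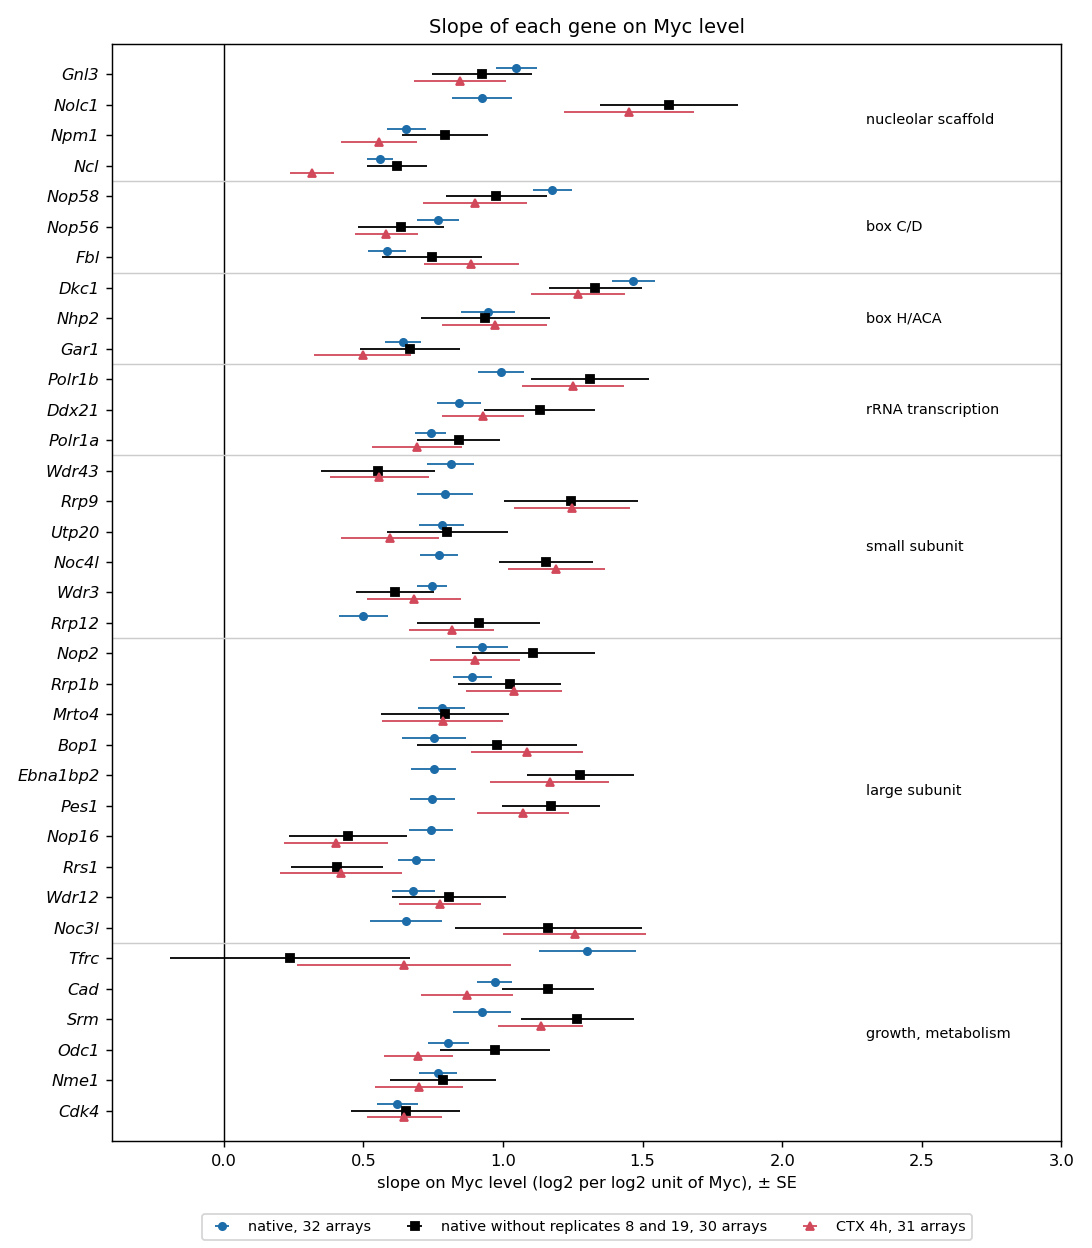
Slope of each of the 35 genes on the Myc level (log2 per log2, horizontal axis), by gene (vertical axis), with bars of 1 SE, in the 32 native arrays, in the 30 native arrays without replicates 8 and 19, and in the 31 CTX 4h arrays. All 35 slopes lie above 0 in each of the 3 fits, and without the 2 arrays the smallest native slope is 0.24, for Tfrc.

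The nucleolar scaffold proteins include both a steep and a flat gene. Ncl encodes nucleolin, an abundant RNA-binding protein of the nucleolus. Its level was 12.26 at the lowest, 12.64 at the median and 13.03 at the highest in the 30 native arrays, and 12.41, 12.58 and 13.07 in CTX 4h. These ranges overlap almost wholly, and only replicates 8 (11.18) and 19 (11.47) lie below them. Its slope was 0.56 ± 0.05 in the 32 native arrays (SE, limma adjusted p = 4e-11) and 0.62 ± 0.11 without the 2 arrays, and r with Myc over the 30 arrays was 0.79 (rho 0.76, permutation p = 1e-05 for each, the smallest that the 100000 permutations can give). Gnl3 encodes nucleostemin, a nucleolar GTPase. It ranged from 10.62 over a median of 11.22 to 12.06 in the 30 native arrays and from 10.65 over 11.22 to 12.08 in CTX 4h. Replicates 8 and 19, at 8.70 and 8.85, were far below both ranges. The slope of Gnl3 was 1.05 ± 0.07 (SE, n = 32) and 0.93 ± 0.18 without them. Npm1 (nucleophosmin, a histone and ribosome chaperone) and Nolc1 (a chaperone of small nucleolar ribonucleoproteins) rose as well, and Nolc1 had the steepest slope of the 35 genes once the 2 arrays were left out, 1.59 ± 0.25 (SE, n = 30, limma adjusted p = 8.38e-05) against 0.92 ± 0.11 over 32 arrays.

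The core proteins of both classes of small nucleolar ribonucleoprotein rose with Myc. Fbl, the methyltransferase fibrillarin, ranged from 11.41 over a median of 11.84 to 12.82 in the 30 native arrays and from 11.27 over 11.77 to 12.71 in CTX 4h. Its slope of 0.58 ± 0.07 (SE, n = 32) was the flattest of the box C/D proteins over the 32 arrays, and was 0.75 ± 0.18 without the 2 arrays. Nop58, a scaffold protein of the same particle, ranged from 10.23 over 10.93 to 11.49 and, in CTX 4h, from 10.21 over 10.77 to 11.79. It stood at 8.44 and 7.86 in replicates 8 and 19, and its slope was 1.18 ± 0.07 (SE, n = 32) and 0.98 ± 0.18 without them. Nop56, its partner, had slopes of 0.77 ± 0.08 and 0.63 ± 0.15.

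Dkc1 had the steepest slope of all 35 genes over the 32 native arrays and the closest relation to Myc. It encodes dyskerin, the pseudouridine synthase of the box H/ACA particle. Its level ran from 10.21 over a median of 10.65 to 11.52 in the 30 native arrays and from 9.94 over 10.58 to 11.63 in CTX 4h. In replicates 8 and 19 it was 7.31 and 7.37. The slope was 1.47 ± 0.08 over 32 native arrays (SE, limma adjusted p = 3.44e-15), 1.33 ± 0.17 without the 2 arrays and 1.27 ± 0.17 in CTX 4h. Over the 30 native arrays r was 0.86 and rho 0.84 (permutation p = 1e-05 for each, adjusted over all genes 0.000321 and 0.000546). It was 0.83 without the 2 arrays farthest from the median Myc level, and 0.84 within each RNA input. Gar1, another protein of that particle, was the flattest of the 3, from 10.32 over 10.86 to 11.64, with a slope of 0.64 ± 0.07 (SE, n = 32) and 0.67 ± 0.18 without the 2 arrays. Nhp2 stood between them at 0.95 ± 0.10 and 0.94 ± 0.23.

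**Figure D2:**
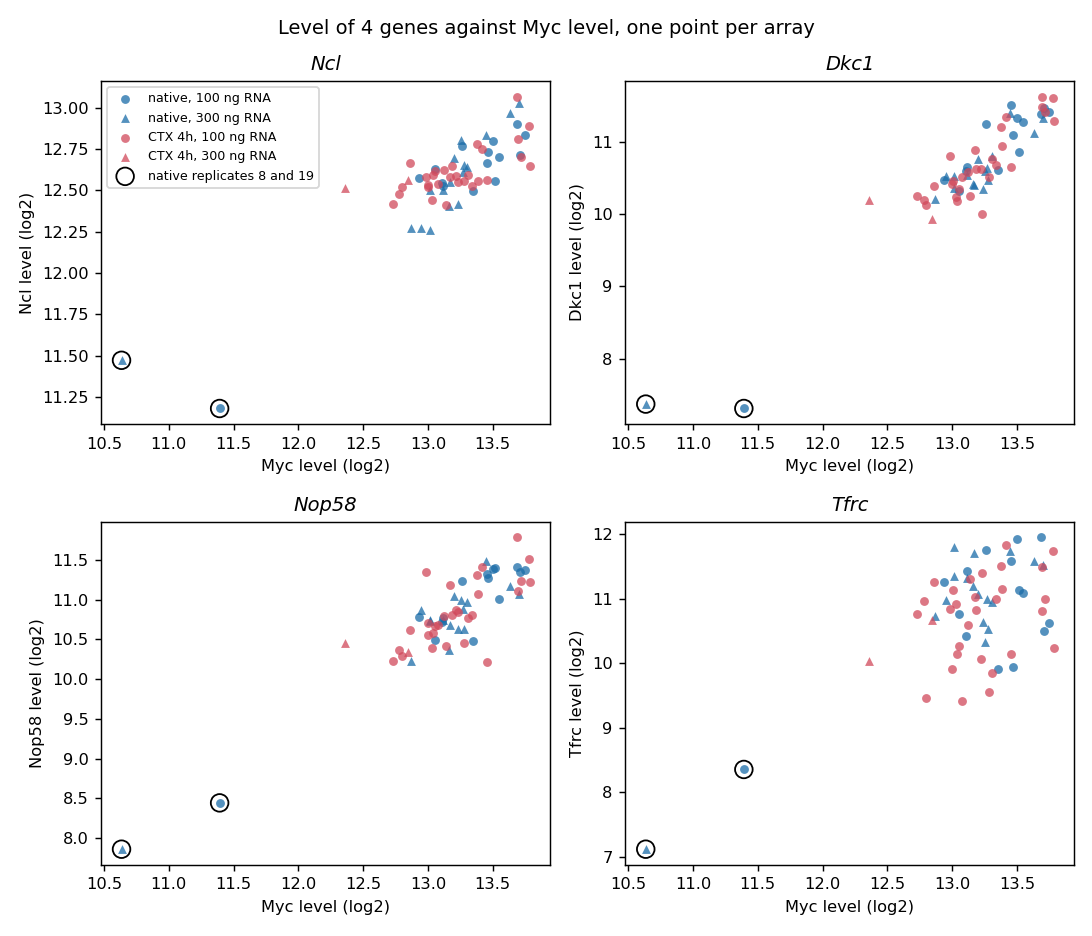
Log2 level of Ncl, Dkc1, Nop58 and Tfrc (vertical axes) against the log2 level of Myc (horizontal axes), 1 point per array, by treatment and RNA input. The circled points are native replicates 8 and 19, with Dkc1 at 7.31 and 7.37; the slope of Tfrc among the other native arrays, 0.24 ± 0.43 (SE), did not pass, with r = 0.06.

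RNA polymerase I was represented by its 2 largest subunits. Polr1b ranged from 10.56 over a median of 11.26 to 12.06 in the 30 native arrays and from 10.04 over 10.90 to 12.32 in CTX 4h, and stood at 9.27 and 8.91 in replicates 8 and 19. Its slope was 0.99 ± 0.08 (SE, n = 32) and 1.31 ± 0.21 without them. Polr1a ranged from 9.83 over 10.34 to 10.75 and from 9.26 over 10.14 to 10.95, with 8.67 and 8.61 in the 2 arrays, and slopes of 0.74 ± 0.06 and 0.84 ± 0.15. Polr1b also tracked the other 34 genes most closely over the 30 native arrays, with r = 0.97 to their mean. Ddx21, a helicase that takes part in ribosomal RNA transcription and processing, had a slope of 0.84 ± 0.08, and 1.13 ± 0.20 without the 2 arrays.

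By the limma slope all 6 small-subunit factors rose with Myc with and without the 2 arrays. Wdr43, a protein of the early small-subunit processome, ranged from 10.91 over a median of 11.70 to 12.49 in the 30 native arrays and from 10.56 over 11.66 to 12.37 in CTX 4h. Its slope was 0.81 ± 0.08 (SE, n = 32), but 0.55 ± 0.20 without the 2 arrays (limma adjusted p = 0.0381). Its r with Myc over the 30 native arrays was 0.40 and did not pass (permutation adjusted p = 0.0631), while rho was 0.51 (permutation adjusted p = 0.0183). Rrp12, an export and processing factor, ran from 7.94 over 8.37 to 9.15 and from 7.79 over 8.20 to 9.07. It had the smallest slope of the 35 genes over all native arrays, 0.50 ± 0.09, and a larger one without the 2 arrays, 0.91 ± 0.22. Wdr3, Utp20, Rrp9 and Noc4l, further parts of the processome, had slopes from 0.75 to 0.79, and from 0.61 (Wdr3) to 1.24 (Rrp9) without the 2 arrays.

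Of the 10 large-subunit factors, 8 rose with Myc once the 2 arrays were left out. Nop2, a methyltransferase of the large ribosomal RNA, ranged from 9.98 over a median of 10.69 to 11.45 in the 30 native arrays and from 9.99 over 10.39 to 11.20 in CTX 4h. Its slope was 0.93 ± 0.09 (SE, n = 32) and 1.11 ± 0.22 without the 2 arrays. Noc3l, a factor of pre-ribosome transport, varied most within the group, from 8.56 over 9.40 to 10.65 in native arrays and from 8.41 over 8.90 to 10.48 in CTX 4h. Replicates 8 and 19, at 8.20 and 8.09, lay only a little below the other native arrays. Its slope was 0.65 ± 0.13, and 1.16 ± 0.33 without the 2 arrays. Bop1, Pes1 and Wdr12, which form one complex, had slopes of 0.75 ± 0.12, 0.75 ± 0.08 and 0.68 ± 0.08, and of 0.98 ± 0.29, 1.17 ± 0.18 and 0.81 ± 0.20 without the 2 arrays. Mrto4, Rrp1b and Ebna1bp2 rose as well, at 0.78, 0.89 and 0.75, and at 0.79, 1.02 and 1.28 without them.

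The growth and metabolism genes rose with Myc too, with 1 exception once the 2 arrays were set aside. Cdk4, the kinase partner of D-type cyclins, ranged from 12.10 over a median of 12.70 to 13.35 in the 30 native arrays and from 12.07 over 12.58 to 13.26 in CTX 4h, with a slope of 0.62 ± 0.07 (SE, n = 32) and 0.65 ± 0.20 without the 2 arrays. Odc1 and Srm, the enzymes that make putrescine and spermidine, had slopes of 0.80 ± 0.07 and 0.93 ± 0.10, and of 0.97 ± 0.20 and 1.27 ± 0.20 without them. Cad, which carries out the first steps of pyrimidine synthesis, and Nme1, a nucleoside diphosphate kinase, had slopes of 0.97 ± 0.06 and 0.77 ± 0.07, and of 1.16 ± 0.17 and 0.79 ± 0.19 without them. Tfrc, the transferrin receptor for iron uptake, ranged widely, from 9.92 over 11.11 to 11.95 in native arrays and from 9.41 over 10.82 to 11.83 in CTX 4h. Its slope of 1.30 ± 0.17 over 32 arrays rested on replicates 8 (8.36) and 19 (7.12), as r over the other 30 arrays was 0.06 (rho 0.03, permutation p = 0.77 and 0.856).

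Over the 30 native arrays the median r of the 35 genes with Myc was 0.68, and 31 passed a permutation p adjusted over all genes, where 19.4% of all genes did with a positive sign. In CTX 4h the median r was 0.72 and 33 passed, with a background of 22%. The 35 genes also moved with each other, with a median r of 0.66 over 595 pairs in the 30 native arrays and 0.67 in CTX 4h. These pairs share arrays and normalization. After Myc and RNA input were taken out, the median r of the pairs was 0.41 and 0.38.

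Genes outside the list but in the same pathway rose with Myc as well. Without the 2 arrays, where 17.5% of all genes rose, 38 of 43 further small-subunit processome genes rose and none fell. In large-subunit assembly 37 of 49 genes rose, and in the RNA polymerase I machinery 10 of 18. In the snoRNP assembly list, which also holds Nol3, 9 of 14 rose. The RNA exosome, which trims ribosomal RNA, rose in 12 of 13 genes, and RNA polymerase III with its associated factors in 14 of 17. Nucleotide, polyamine and one-carbon metabolism rose in 17 of 23. A list of translation factors and aminoacyl-tRNA synthetases rose in 19 of 22. In the network of MYC partners and antagonists 3 of 12 rose and 1 fell, a share of rises near that of all genes. Among the pathway genes with the smallest p over the 32 native arrays were Rcl1 and Nat10 of the small-subunit processome, with slopes of 1.06 ± 0.07 and 0.89 ± 0.08 (SE), and Pa2g4 and Rsl1d1 of large-subunit assembly, at 1.02 ± 0.07 and 1.23 ± 0.09. Without the 2 arrays these slopes were 1.12 ± 0.16, 1.16 ± 0.21, 0.76 ± 0.15 and 1.17 ± 0.22. Eif4e, the cap-binding protein, had slopes of 0.91 ± 0.06 over 32 arrays and 0.997 ± 0.165 without the 2, and Max, the partner of MYC, 0.71 ± 0.10 and 1.21 ± 0.23.

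Genes of mitosis moved with Myc and with these genes. Their mean over 13 markers had r = 0.70 with Myc in the 30 native arrays and 0.73 in CTX 4h, and r = 0.88 and 0.86 with the mean of the 35 genes. All 13 mitotic genes rose with Myc in the 30 native arrays and in CTX 4h, where 17.5% and 20.7% of all genes did. With the mitotic mean as a further term, added after the data were seen, 10 of the 35 genes still had a called Myc slope over 32 native arrays, where 8.62% of all genes did, and 6 slopes lay below 0, the lowest Noc3l (−0.62), Bop1 (−0.45) and Rrp12 (−0.23). Without the 2 arrays it was 2 of 35, Dkc1 (0.77) and Cad (1.03), both at a limma adjusted p of 0.0429, with 0.171% of all genes called, and 4 slopes lay below 0, the lowest Tfrc (−0.58). In CTX 4h it was 0 of 35 and 0 of all genes by limma, with all 35 slopes above 0. Their part in the slopes was not tested beyond this.

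Replicates 8 and 19 held the lowest level of all 35 genes among the 63 arrays. Each of the 35 genes was lower in both arrays than in any of the other 61, which was true of 11.9% of all genes, and 4.47% were higher than in any other. Against the median of the other native arrays the mean of the 2 arrays was lower by a median of 1.75 log2 units over the 35 genes, while the median over all genes was 0.17 higher. Tfrc (−3.37), Dkc1 (−3.31) and Nop58 (−2.78) lay furthest below, and Rrp12 (−0.90), Noc3l (−1.26) and Fbl (−1.26) least. Only 1 gene of the 19937 lay further below than Tfrc. The mean of the 35 genes was 8.94 in replicate 8 and 8.89 in replicate 19, and 10.25 at the lowest of the other native arrays. As these arrays were picked by a measured level, no test of these differences was made.

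Other gene groups also differed in these 2 arrays. The mean of the mitotic genes was 8.68 and 8.51, against 10.45 to 11.72 in the other native arrays. The mean of 10 pan-B markers was 10.47 and 11.04, within the range of 9.88 to 11.81 of the other native arrays, and that of 14 T and NK cell markers was 8.49 and 8.82, within 6.75 to 9.80. Replicate 19 was above the other native arrays in 7 salivary gland markers (11.08 against at most 10.87) and 13 macrophage markers (9.14 against at most 9.10), and replicate 8 in 6 erythroid markers (6.86 against at most 6.80). Stroma and adipocyte markers were within the range of the other native arrays in both. The part of these in the low levels was not tested.

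Lymphomas taken 4 h after cyclophosphamide were compared with native ones over all 63 arrays, with RNA input as a term. None of the 35 genes passed in either direction, where 2.67% of all genes did, and 30 of the 35 estimates lay below 0, with a median of −0.13 against −0.01 for all genes. By an unadjusted p under 0.05 there were 3, Noc3l (−0.51 ± 0.17, SE, limma adjusted p = 0.0819), Rrp12 (−0.27 ± 0.11, adjusted p = 0.181) and Rrp9 (−0.33 ± 0.16, adjusted p = 0.261), where 17.5% of all genes reached it. Among all genes of the pathway lists only Ddx31, a helicase of large-subunit assembly, passed, a smaller share than the 2.67% of all genes. It fell by 0.49 on the log2 scale (SE 0.14, limma adjusted p = 0.0406), and Urb2 came next (−0.66 ± 0.20, adjusted p = 0.0567). Myc itself differed by −0.09 ± 0.14 (adjusted p = 0.77).

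The 2 low-Myc arrays are both native and held the lowest level of each of the 35 genes. Leaving them out thus moves the estimates down by construction, and the p-values do not allow for that choice. Without them 12 of the 35 genes passed as lower in CTX 4h, where 8.31% of all genes did. All 35 estimates were then below 0, with a median of −0.26. This fit and the fit over all arrays had no term for the lymphoma number, whose series were unevenly split between the groups. At 100 ng, 7 of 15 native and 6 of 29 treated arrays lay in the number subset where Noc3l medians were highest, described below. The part of that imbalance in the fall was not tested beyond the comparisons by subset below. The 12 were Noc3l (−0.61 ± 0.16, SE, limma adjusted p = 0.0102), Nop56 (−0.28 ± 0.07, adjusted p = 0.00936), Rrp12, Polr1b, Bop1, Rrp9, Nop2, Utp20, Srm, Rrp1b, Noc4l and Dkc1, the last with an adjusted p of 0.0491. Leaving out replicate 8 alone gave 5 called genes, Bop1, Noc3l, Nop56, Rrp12 and Rrp9, with a background of 7.95% in either direction. Noc3l alone passed without native replicate 7 or without CTX 4h replicate 24, 25 or 27. The shares of all genes called in these 4 fits are not given here. Weighting arrays by their fit, which gave replicate 8 the smallest weight and replicate 19 the next, called 23 genes as lower, with a background of 29.2% in either direction.

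Terms for the Myc level or the mitotic genes changed these counts. Without the 2 arrays Myc differed by −0.23 ± 0.08 (SE, limma adjusted p = 0.0531), a difference that picking them by Myc itself lowers. With Myc as a term as well none of the 35 genes passed by limma, with a median of −0.06. The share of all genes called in that fit is not given here. The mitotic genes were lower after treatment in 5 of 13 over all arrays, where 2.67% of all genes were called in either direction, and in 13 of 13 without the 2 arrays, where 8.31% were lower. With the mitotic mean as a term over all 63 arrays, added after the data were seen, 11 of the 35 genes were called higher in CTX 4h, with a background of 4.64% in either direction, and 34 estimates were above 0, with a median of 0.23. Dkc1 (0.48 ± 0.11, SE, limma adjusted p = 0.00899), Odc1, Nme1, Fbl and Ncl led these. The sign of the median thus turned with this term. With Myc alone as a term over all arrays 1 gene, Noc3l, was called lower (3.74% of all genes called), as after quantile normalization (3.9%). Markers of other tissues also differed over all arrays, where 2.67% of all genes were called in either direction, with 5 of 11 stroma, 2 of 7 adipocyte, 2 of 7 salivary and 1 of 13 macrophage markers higher in CTX 4h, and 0 of 10 pan-B markers in either direction. Their part in the difference was not tested.

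The comparison was then made within 4 subsets of arrays, given by the RNA input and, at 100 ng, the first digit of the lymphoma number, which the labels do not call a batch. The 3 subsets at 100 ng held 6 treated against 7 native arrays (numbers from 1), 9 against 3 (from 8) and 14 against 5 (from 9), and the 300 ng subset 2 against 17. None of the 35 genes passed in any subset by limma, where 0.01%, 0.00502%, 0 and 1.04% of all genes did. By unadjusted p under 0.05 the lowest were Ncl, Fbl, Odc1 and Npm1 in the numbers from 9, where 8.9% of all genes reached it, and Rrp12, Pes1 and Bop1 at 300 ng, where 12.5% did.

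The medians of the 35 genes differed in sign between subsets, and in 1 subset the sign turned without native replicate 8. The median difference was −0.07 for numbers from 1, −0.10 for numbers from 8, 0.31 for numbers from 9 and −0.37 at 300 ng. In the numbers from 9 all 35 estimates were above 0, and that subset holds replicate 8. The mean of the 35 genes in its 5 native arrays was 10.56, 10.78, 10.97, 10.46 and 8.94, and in its 14 treated arrays it was 10.29 at the lowest, 10.55 at the median and 11.37 at the highest. Replicate 8 stood alone below the others, and without it the median was −0.05 with 9 of 35 estimates above 0. At 300 ng the 2 treated arrays had a mean of 10.25 and 10.26 and Myc at 12.85 and 12.36, and the 17 native arrays had a mean from 8.89 over 10.63 to 11.19. Without replicate 19 the median there was −0.46. An F test of whether the differences vary between subsets called 0 of 35 genes and 0 of all genes by limma, with 1 of the 35, Rrp12, and 929 of all genes under an unadjusted p of 0.05.

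Noc3l, the gene with the largest fall, shows the subsets in its levels. In the numbers from 1 it ranged from 9.74 over a median of 10.36 to 10.65 in native arrays and from 9.57 over 9.98 to 10.48 after treatment, so the ranges overlap. In the numbers from 8 its 3 native values were 9.06, 9.30 and 9.49, and the 9 treated arrays ran from 8.41 over 8.81 to 9.36. In the numbers from 9 its native values were 9.04, 9.09, 9.40, 8.56 and 8.20, and the treated arrays ran from 8.49 over 8.88 to 9.71. The subset with numbers from 1 had the highest median in both groups, and the groups overlapped in every 100 ng subset. At 300 ng the 2 treated values were 8.56 and 8.80, within the 17 native values, which ran from 8.09 over 9.15 to 9.90. The estimate of Noc3l was −0.52 ± 0.27 (SE) there, against −0.28, −0.47 and 0.06 for the numbers from 1, 8 and 9, and none passed by limma.

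**Figure D3:**
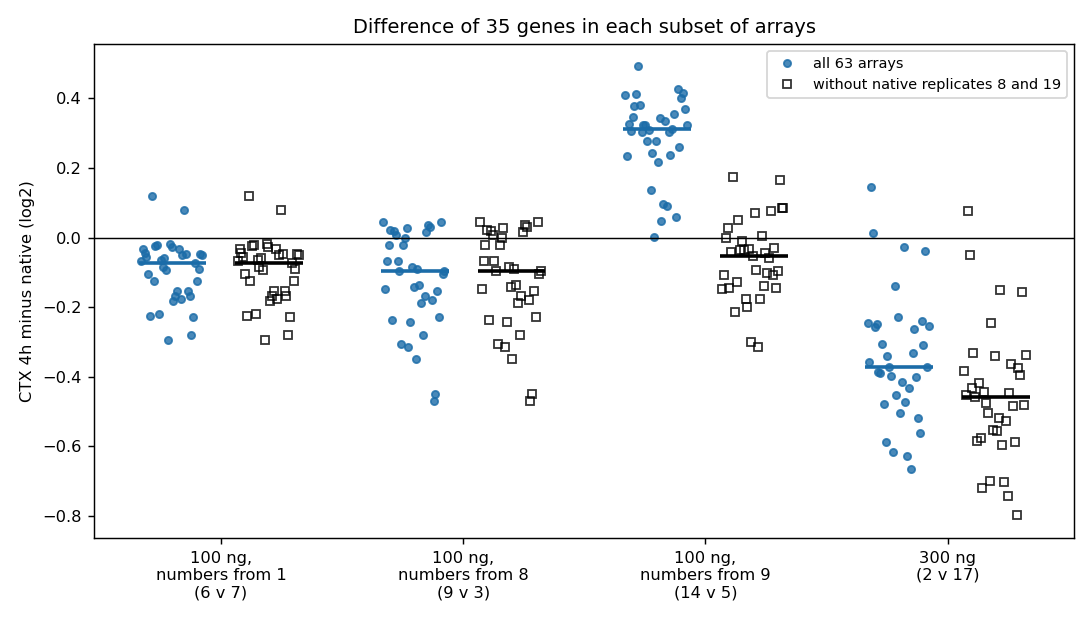
Difference between CTX 4h and native arrays (log2, vertical axis) of each of the 35 genes in the 4 subsets of arrays, over all 63 arrays and without native replicates 8 and 19; lines mark the medians. The median in the numbers from 9 moves from 0.31 to −0.05 when replicate 8 is left out.

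RNA input, the processing difference that the labels state, was also compared within the native group. At 100 ng, 7 of 15 native arrays lay in the number subset where Noc3l medians were highest, and no 300 ng array has such a number. The comparison thus does not separate RNA input from lymphoma number, and the part of each was not tested. None of the 35 genes passed an adjusted p of 0.05 between 300 ng and 100 ng by limma, where 0.15% of all genes did. Without replicates 8 and 19 it was again none of 35, with 0.958% of all genes, and the smallest adjusted p was that of Npm1 (−0.31 ± 0.10, SE, adjusted p = 0.0885). Most of these estimates were nevertheless below 0, that is, lower at 300 ng. The lowest were Nolc1 (−0.53 ± 0.18), Noc3l (−0.46 ± 0.18) and Bop1 (−0.42 ± 0.16), and the highest was Tfrc (0.13 ± 0.20).

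Fbl, Wdr12, Mrto4 and Odc1, 4 of the 35 genes, had 2 probe sets with their symbol alone. For Wdr12, Mrto4 and Odc1 the brighter probe set, used here, sits in the array's numbering among probe sets of another chromosome, and its r with the other probe set over all arrays was 0.90, 0.99 and 0.94. For Fbl the brighter probe set sits among probe sets of its own chromosome, and its r with the other was 0.80. With the other probe set used for Wdr12, Mrto4 and Odc1, all 35 genes still rose with Myc over the 32 native arrays, with a median slope of 0.77. Before this change 29.1% of all genes rose in that fit, which holds the 2 low-Myc arrays. The change is not given here without those arrays or in CTX 4h.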

How the data were processed

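Expression was measured in 63 mouse lymphoma samples on 1 array each. Per the submitters' processing notes, the authors processed the arrays with Partek 6.5 and RMA, and the deposited values are log2 levels of 35557 probe sets. Their array medians ran from 6.53 to 7.11, and they were used without further scaling. Platform annotation gave 21789 probe sets a single symbol, 1621 several and 12147 none, and 21698 of the first matched a RefSeq gene (GRCm38.p6). The brightest single-symbol probe set stood for each of 19938 genes. Tests used limma 3.58.1 in R 4.3.3 on all genes, two-sided, with Benjamini-Hochberg adjustment and a threshold of 0.05, and were tested on simulated data. Correlations used 100000 permutations. No label says that arrays of a group come from separate mice, so the p-values reflect only variation among these arrays, which may be technical. Replicate numbers follow accession order. Array number and spread limit the precision.

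The genes, their role groups, the pathway and marker lists and the tests were chosen with earlier results of these data known. Values by array are given for the steepest and flattest gene of each role group and for called genes, and for pathway genes those with the smallest p. Alternatives changed the RNA input term, normalization, probe set rule, filter on dim genes, array weights and arrays used.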

Additional observations from a re-analysis of the deposited data

Results flagged for a closer look

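In groups of 4 to 10 arrays, 15 of 64 groups of values had 1 array separated from the rest beyond the 95% critical value of Dixon's test, where chance gives about 1 in 20. The 64 are not independent, since the genes move together across the same arrays. The 15 include values of native replicate 8, which had already been picked by its low Myc level. The share cannot therefore be set against chance, and these values give no separate evidence on that array.

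Native replicate 8 was the lowest of the 5 native arrays with numbers from 9 for Myc (11.39), the mean of the 35 genes (8.94), Gnl3 (8.70), Ncl (11.18), Dkc1 (7.31), Polr1a (8.67) and Wdr43 (9.44). Replicate 19, the other array with little Myc, sits in a group of 17, too large for this test.

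CTX 4h replicate 29 was the lowest of the 6 treated arrays with numbers from 1 for the mean of the 35 genes (10.45), Nop58 (10.68), Dkc1 (10.52), Polr1b (11.07), Wdr43 (10.56) and Nop2 (10.60). Native replicate 13 was the lowest of the 7 native arrays with numbers from 1 for Wdr43 (10.91) and Noc3l (9.74).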

How the results depend on the processing

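The median native slope of the 35 genes, 0.77, was 0.91 in the 100 ng arrays alone, 0.65 after quantile normalization, 0.93 without both low-Myc arrays, and, of the alternatives added after seeing the data, 0.93 without these arrays with marker terms, 0.91 without them at a common median, and 0.50 without them with the mitotic term. With the mitotic term the native slopes kept 10 called genes at a median of 0.24, and 2 without the low-Myc arrays. Slopes turned below 0 for Nolc1 (−0.0586), Rrp12 (−0.23), Bop1 (−0.45), Noc3l (−0.62), Srm (−0.0160) and Cdk4 (−0.0732) with the mitotic term, and for Bop1 (−0.18), Noc3l (−0.16), Cdk4 (−0.0649) and Tfrc (−0.58) with it and without the low-Myc arrays. In CTX 4h, quantile normalization gave 13 called genes, a median of 0.37 and Nop16 at −0.0840, and the mitotic term 0 called genes at a median of 0.51. Treated against native, 1 gene was called with Myc as a further term, 1 after quantile normalization, 23 with array weights, 12 without both low-Myc arrays and 11, all higher, with the mitotic term, which took the median to 0.23 and Rrp12 and Rrp9 to 0.0166 and 0.0827. In the numbers from 9 the median was −0.0539 without the low-Myc arrays. The cause of these shifts was not tested.

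Leaving out 1 array at a time gave 0 to 5 called genes and medians from −0.24 to −0.08 for treated against native, 35 to 35 and 0.71 to 0.92 for native slopes, and 30 to 33 and 0.79 to 0.87 for CTX 4h slopes, all over every array of the groups compared. Within subsets this was done for the groups of 2 to 5 arrays only, and gave medians from −0.13 to −0.07 without 1 native array of the numbers from 8, −0.0539 to 0.47 without 1 native array of the numbers from 9, and −0.36 to −0.33 without 1 treated array at 300 ng, with 0 called genes in each by limma. Of the 17 native arrays at 300 ng only replicate 19 was left out, which gave −0.46. No paired analysis was possible because replicate numbers follow accession order and no lymphoma number occurs in both groups. The spread within groups of 2 to 5 arrays limits the comparisons by subset. For fits that left out 1 array the shares of all genes called are not given here, apart from 7.95% for treated against native without native replicate 8.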

Other observations

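After Myc and RNA input were taken out, the genes differed in how closely they tracked the mean of the others. Over the 30 native arrays Polr1b (r = 0.92), Nme1 (0.89), Rrp9 (0.88) and Dkc1 (0.87) stayed closest to it, and Gnl3 (0.19), Gar1 (0.23), Wdr43 (0.23) and Rrs1 (0.24) were furthest from it. In CTX 4h the closest were Ebna1bp2 and Pes1, both at 0.86, and the furthest Rrs1 (0.14), Polr1a (0.16) and Gnl3 (0.25). Rrs1, a large-subunit assembly factor, and Gnl3 were thus among the least alike in both groups of lymphomas, which share no lymphoma number. These values are correlations over 30 and 31 arrays that share normalization, and no test was made of them.

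The spread of the genes among native lymphomas depended on replicates 8 and 19. With them Tfrc and Dkc1 were above 98.8% and 98.5% of all genes in their SD over 32 arrays. Without them Tfrc (SD 0.56) stayed high, above 92.3% of all genes, while Dkc1 (SD 0.42) was above 82.7% and Ncl (SD 0.20) above 26.5%.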
